A study of Homo sapiens with 4 samples.

Results

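Polyribosome-bound RNA was compared with total input RNA in the pair of libraries labelled as NSUN6 knockdown, over the gene rows whose mean in the 2 libraries was at least 5 FPKM (fragment counts scaled to transcript length and to library size). That rule kept 6942 of the 17064 rows in the table. By their titles the libraries come from KYSE-150, an established line of human esophageal squamous cell carcinoma labelled as esophageal epithelial cells. The knockdown cells carry a stable short hairpin RNA against NSUN6, and the control cells have normal NSUN6; the labels name no clone and no hairpin sequence. Both kinds of cells were treated with cycloheximide and lysed with a detergent, and polyribosomes were pelleted through a sucrose cushion from the cleared lysate, of which a portion had been set aside as input. Poly(A) RNA of both fractions was sequenced with a stranded kit. There is 1 library for each fraction of each kind of cell, which leaves every difference below without a replicate check or a p-value.

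The identity of the knockdown-labelled libraries is not settled by the table. Its header calls them knockdown RNC (the polyribosome fraction) and knockdown input, while a second line of names at its end calls the same columns, in the opposite order, K30 libraries with a hairpin against Mettl1. The header was followed. If the other order were the true one, each ratio of the pair would keep its size and change its sign. NSUN6 itself stood at 3.83 FPKM in the knockdown-labelled input and 0.38 on its polyribosomes, against 8.85 and 10.1 FPKM in control, so it was lower in both fractions. METTL1 was also lower in both, at 5.98 and 8.32 FPKM against 13.02 and 14.32.

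Markers of squamous epithelium differed between the pairs of libraries. KRT5, a basal keratin, was at 0.45 and 0.70 FPKM in the knockdown-labelled input and polyribosome libraries and at 906 and 1162 FPKM in control. SOX2, a transcription factor of the basal layer, was at 39.5 and 8.28 FPKM in the knockdown-labelled pair and at 0.31 and 0.27 FPKM in control. The 20 squamous markers in the table summed to 773 and 409 FPKM in the knockdown-labelled input and polyribosome libraries and to 1873 and 2314 FPKM in control. KRT5 made up much of the control sums, and without it the inputs summed to 772 and 967 FPKM. Of the 20, 10 were higher in the knockdown-labelled input than in control input and 10 lower, so the list did not differ in 1 direction. Under 1 FPKM were 3 of them in the knockdown-labelled input, 6 on its polyribosomes and 3 in each control library. Over all rows, 149 genes reached 5 FPKM in each knockdown-labelled library while staying below 1 FPKM in each control library, and 94 genes showed the reverse. Markers of fibroblasts, endothelium, blood and immune cells were low, with 19 and 20 of 23 under 1 FPKM and sums of 14.8 and 15.8 FPKM, against 87.3 and 85.6 FPKM in control. CD68 made most of that difference, at 5.90 and 6.38 FPKM against 71.2 and 69.3 in control. In bulk RNA, fewer cells of a kind and less RNA per cell cannot be told apart. The second line of names calls the knockdown-labelled columns K30, and whether both pairs come from the same line was not tested. What these differences contribute to the ratios below was not tested, since each ratio is taken within the pair.

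A messenger RNA under translation carries several ribosomes at once, and such polyribosomes sediment through dense sucrose while free mRNA stays above. Cycloheximide holds elongating ribosomes in place during lysis. The ratio of an mRNA's level on polyribosomes to its level in input is used as a measure of how much of it is being translated, relative to the other mRNAs of the same cells. NSUN6 is a methyltransferase that forms 5-methylcytosine in tRNAs and in a subset of mRNAs, at a short CTCCA motif. Here the ratio is the log2 of (polyribosome FPKM + 1) minus the log2 of (input FPKM + 1), so 1 stands for 2-fold higher on polyribosomes, and the added 1 understates the ratio of low genes.

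A gene is called enriched below where its polyribosome level was 2-fold or more above input on this scale, and depleted where it was 2-fold or more below. In the knockdown-labelled cells 641 of the 6942 genes (9.23%) were enriched and 1868 (26.9%) were depleted, against 0 and 40 (0.576%) of the same genes in control. The control pair's own genes, with a control mean of 5 FPKM or more, held 75 depleted of 7411 (1.01%). The median ratio was near 0 in both pairs, 0.05 in the knockdown-labelled and 0.04 in the control. The spread was not alike: the SD over genes was 1.22 in the knockdown-labelled pair and 0.32 in control. The middle 50% of genes ran from -1.11 to 0.60 in the knockdown-labelled pair and from -0.15 to 0.21 in control. The wider side was the low one, with 874 genes at least 4-fold lower and 40 at least 4-fold higher. At 2-fold the balance turned with expression: the lowest quintile of mean level had 634 genes depleted and 64 enriched (median -0.75), and the highest had 146 depleted and 196 enriched (median 0.40). Levels in the fractions correlated across the kept genes with a Pearson r of 0.80 on the log2 scale in the knockdown-labelled pair and 0.99 in control. Just inside the limit of 5 FPKM stood LY6G6C, with a mean of 5.00 FPKM and a ratio of 0.77, and ABHD6, with 5.005 FPKM and -0.52. Just outside stood PIGO and OSMR, both with a mean of 4.995 FPKM and with ratios of 0.03 and -1.77.

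The ratio of a gene followed the base composition of its transcript. GC content is the share of G and C among a transcript's bases, and in human mRNAs much of its variation lies at the third base of codons, where synonymous codons differ. One transcript with the longest coding sequence was taken for each gene, which 6915 of the 6942 genes had. Across these genes Spearman's rho between ratio and transcript GC content was 0.82 in the knockdown-labelled pair and -0.04 in control. It was 0.74 for GC at the third codon base, 0.76 for the whole coding sequence, 0.73 for the 3′ UTR and 0.19 for the 5′ UTR. These are descriptions across genes, which share 2 libraries and are not independent replicates.

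**Figure D1:**
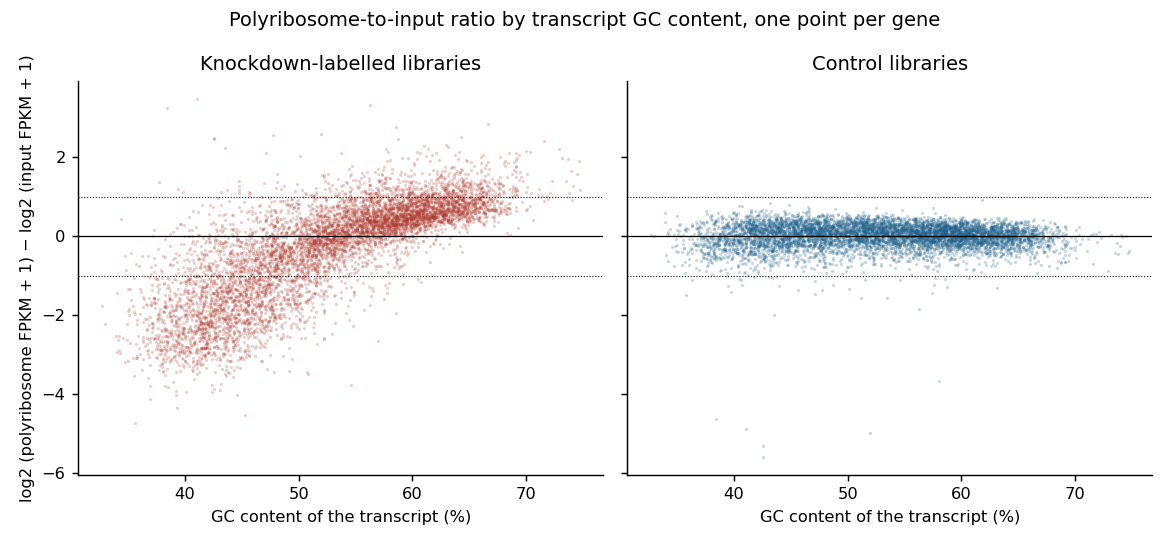
Each point is 1 of 6915 genes, with the GC content of its transcript (%) on the x axis and its log2 ratio (polyribosome against input, FPKM + 1) on the y axis, for the knockdown-labelled libraries (left) and the control libraries (right). Dotted lines mark 2-fold. In the knockdown-labelled pair the points climb with GC content (rho 0.82), and in control they lie along 0 (rho -0.04).

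By quintile of GC content, from the most AT-rich to the most GC-rich transcripts, the median ratio was -1.94, -0.85, 0.02, 0.45 and 0.77. The same quintiles in control had medians of 0.01, 0.08, 0.08, 0.04 and -0.00. Of the 1383 genes in the most AT-rich quintile, 1114 were depleted and 10 enriched. Of as many in the most GC-rich quintile, 1 was depleted and 384 enriched. Under 40% GC, 361 of 410 genes (88.0%) were depleted. The genes depleted had a median GC content of 43.5%, and those enriched one of 62.2%. Within each quintile of expression rho stayed between 0.69 and 0.83, and was lowest among the most abundant genes.

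The composition gradient was seen in the knockdown-labelled polyribosome library. Its median level went from 4.98 FPKM in the most AT-rich quintile to 39.1 FPKM in the most GC-rich. The knockdown-labelled input had medians of 20.7 and 21.4 FPKM in those quintiles, and the control libraries stood between 17.4 and 26.5 FPKM in all 5. Against GC content, the log2 difference of the knockdown-labelled polyribosome library from control polyribosomes had a rho of 0.61, and that of the knockdown-labelled input from control input one of -0.14. GC-dependent recovery in library making and a change in translation cannot be told apart with 1 library per fraction.

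**Figure D2:**
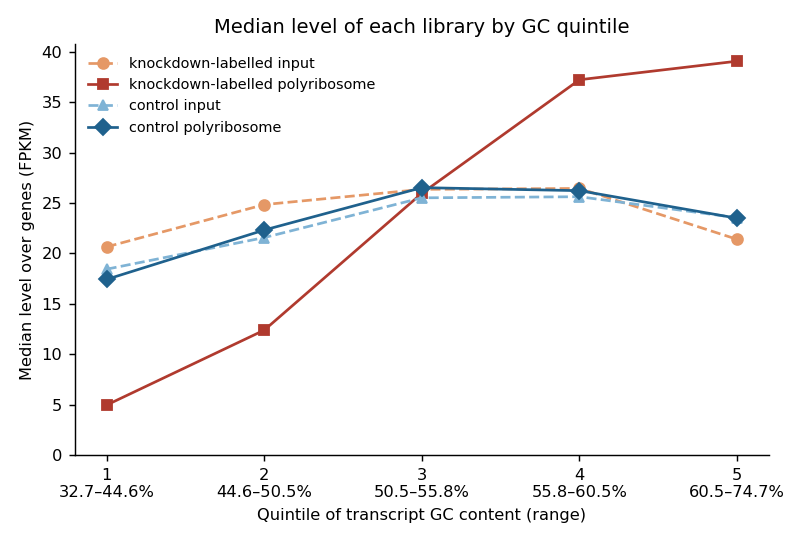
Median level over genes (FPKM) in each quintile of transcript GC content, 1 line for each of the 4 libraries. The knockdown-labelled polyribosome library climbs from 4.98 to 39.1 FPKM, while its input is at 20.7 FPKM in the first quintile and 21.4 in the last.

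Length was compared next. Over all genes rho with the ratio was -0.09 for coding length, -0.23 for transcript length and -0.25 for 3′ UTR length. Within the quintiles of GC content the rho of coding length was -0.45, -0.49, -0.43, -0.35 and -0.33, so longer coding sequences had lower ratios at similar composition. In control the corresponding values were -0.18, -0.05, 0.05, 0.04 and -0.00. Transcript length had values from -0.14 to -0.27 and 3′ UTR length from -0.03 to 0.06 within the quintiles of the knockdown-labelled pair. A quadratic fit to GC content and log2 transcript length took up 66.3% of the variance of the ratio over genes, against 4.94% in control. Coding length was not part of the fit, here and wherever length is said to be removed. With that fit removed, 245 genes (3.54%) were enriched and 892 (12.9%) depleted. The removal kept the mean ratio over genes (-0.30), and the median was then -0.31. With the limits of 2-fold left unchanged, the lower limit lay nearer to that median than the upper one, which favours counts of lower genes. Of the genes beyond 2-fold before, 71 of 635 higher and 784 of 1861 lower genes stayed beyond it in the same direction.

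The core motif of NSUN6, CTCCA, was searched in the sense strand of the 3′ UTRs. It was present in 60.7% of the genes enriched, 59.4% of those depleted and 63.2% of all 6838 kept genes with a 3′ UTR. Its density was 2.24 sites per kilobase in the enriched genes, 1.10 in the depleted and 1.59 in all, and the median 3′ UTR lengths were 471, 1190 and 756.5 bases. In the most AT-rich quintile it stood at 0.975 sites per kilobase in the genes depleted and 0.992 in the whole quintile. The most GC-rich quintile had 2.32 sites per kilobase in its enriched genes and 2.33 over all its genes. Between groups the density differed, while in these quintiles it was close to that of the quintile. ATTTA, the core of AU-rich elements, was in the 3′ UTR of 37.8% of the higher genes and 83.8% of the lower ones. In the most AT-rich quintile ATTTA was in 88.4% of the lower genes and 88.8% of the whole quintile. The middle quintile had it in 49.2% of the higher genes, 70.6% of the lower ones and 58.3% of all its genes.

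Pairs of related genes were set side by side with this gradient, some of them encoding nearly the same protein with different codons. The coding sequences below are from GENCODE 29 transcripts, each pair aligned over the same stretch of protein, in lower case with every G or C at the third base of a codon in capitals. PPP1CB and PPP1CA are shown because they lie far apart in GC content and in ratio, and HSP90AA1 with HSP90AB1 because they lie far apart in ratio at a small difference in GC content.
PPP1CB codons 85 to 124: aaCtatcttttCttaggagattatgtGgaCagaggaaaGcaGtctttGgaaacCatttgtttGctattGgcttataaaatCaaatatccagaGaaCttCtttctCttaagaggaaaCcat
PPP1CA codons 97 to 136: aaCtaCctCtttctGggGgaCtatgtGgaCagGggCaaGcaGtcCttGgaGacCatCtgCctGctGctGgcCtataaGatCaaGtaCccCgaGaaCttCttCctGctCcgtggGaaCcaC
HSP90AA1 codons 214 to 253: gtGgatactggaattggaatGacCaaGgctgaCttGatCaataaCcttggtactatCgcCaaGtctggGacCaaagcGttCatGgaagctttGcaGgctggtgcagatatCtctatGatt
HSP90AB1 codons 87 to 126: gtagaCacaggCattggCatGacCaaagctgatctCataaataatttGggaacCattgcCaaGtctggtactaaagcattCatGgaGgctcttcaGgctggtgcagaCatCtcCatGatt

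RAB1A and RAB1B are GTPases of transport between the endoplasmic reticulum and the Golgi, and 93.5% of their aligned residues are identical. RAB1A had 54.7 FPKM in input and 5.84 on polyribosomes, a ratio of -3.02, at a transcript GC content of 38.3%. RAB1B had 272 and 401 FPKM, a ratio of 0.56, at 61.1% GC. PPP1CB and PPP1CA, catalytic subunits of protein phosphatase 1, had 16 and 36 codons ending in G or C in the 40 codons shown, and their ratios were -3.54 and 0.40. In both pairs the member with the higher GC content was the higher one on polyribosomes.

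The chaperones HSP90AA1 and HSP90AB1 differed by 3.03 on the log2 scale with little difference in transcript GC content. The transcript of HSP90AB1 has 2.89 points more GC, and in the stretch shown 20 and 18 codons end in G or C. Over the whole coding sequence GC at the third codon base is 49.7% in HSP90AA1 and 58.1% in HSP90AB1, which the stretch does not show. HSP90AA1 was at -4.55 and HSP90AB1 at -1.51.

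Both members were kept in 56 of the 61 pairs of related genes listed, of which 18 share under 50% of their aligned residues and include different subunits of 1 complex. The member with the higher GC content had the higher ratio in 49 of them, among these all 25 pairs whose GC contents differ by at least 10 points. Of those 25, 13 pairs share at least 50% of their residues. In the 25 the difference ran from 0.87 to 4.35 with a median of 2.62, and the control libraries gave a median of 0.06. CDK1 and CDK4, kinases of mitosis and of G1 that share 43.8% of residues, lay the farthest apart of the 25, at -3.26 and 1.09. The other 31 pairs had a median difference of 0.71. Against the direction were, for example, RPLP0 and RPLP1, at 1.34 and 2.57 with 55.7% and 47.7% GC. The pairs were chosen with earlier results of these data known.

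**Figure D3:**
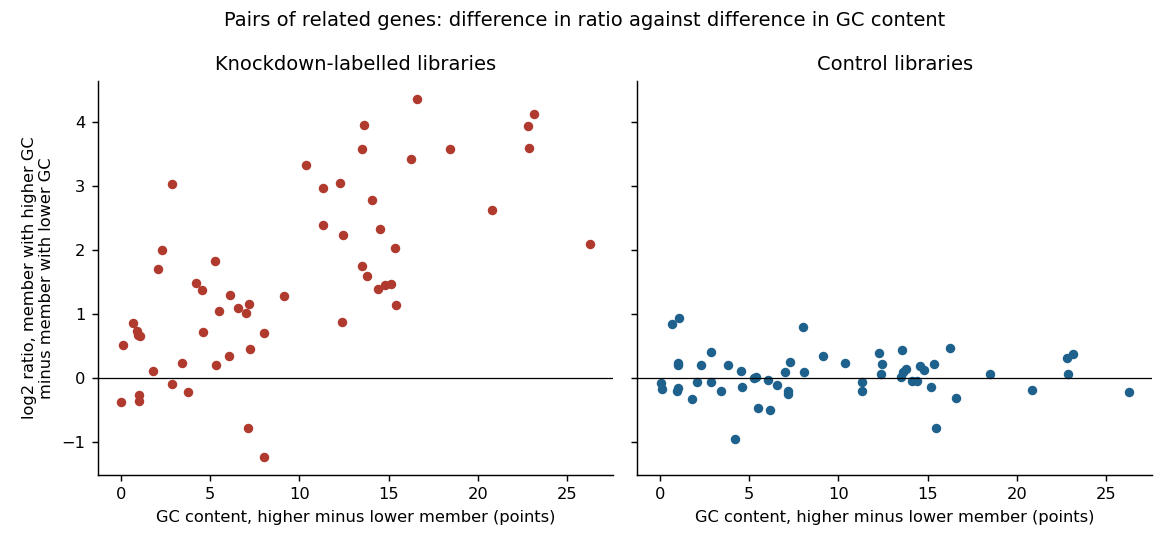
Each point is 1 of 56 pairs of related genes, with the difference in GC content (points, higher minus lower member) on the x axis and the difference of the log2 ratios (higher-GC minus lower-GC member) on the y axis, for knockdown-labelled (left) and control libraries (right). All 25 pairs at least 10 points apart lie above 0 on the left, between 0.87 and 4.35, and their median on the right is 0.06.

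The lowest ratios among genes averaging 10 FPKM or more belonged mostly to mRNAs near their input level on control polyribosomes. That held for most genes: 6470 of the 6942 kept (93.2%) had an absolute control log2 ratio under 0.5. HSP90AA1, the stress-inducible cytosolic chaperone, had 232 FPKM in the knockdown-labelled input and 8.97 on its polyribosomes, against 160 and 172 FPKM in control. ANXA1, a membrane-binding annexin of squamous epithelium, had 265 and 12.0 FPKM against 337 and 394 FPKM. TARS, the threonyl-tRNA synthetase, had 125 and 6.70 FPKM against 40.6 and 49.3. In these 3 genes the knockdown-labelled polyribosome library was the low one of the 4, and the other 3 libraries lay within one order of magnitude. Their log2 ratios were -4.55, -4.35 and -4.03, and in control 0.10, 0.23 and 0.28.

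CSE1L, which returns importin alpha to the cytoplasm, had 44.7 and 1.81 FPKM and a ratio of -4.02. EIF3E, a subunit of initiation factor 3, had 182 and 12.2 FPKM and a ratio of -3.79. CAPZA1, which caps actin filaments, had 110 and 6.17 FPKM and a ratio of -3.96. Like the others, these 3 were low on polyribosomes with ample message in input. The 15 lowest genes further held LUZP6 (-4.75), HAT1 (-4.12), METAP2 (-3.96), SDCBP (-3.92), BRIX1 (-3.89), HSPA4 (-3.89), BCAS2 (-3.83), SSB (-3.81) and PEG10 (-3.77). They include a histone acetyltransferase (HAT1), a methionine aminopeptidase (METAP2), a nucleolar assembly factor (BRIX1) and the RNA-binding La protein (SSB). In control the 15 ranged from -0.86 to 0.28. Their median GC content was 39.3%, and the highest was the 54.6% of PEG10, an imprinted gene of retroviral origin read with a frameshift. PEG10 had 101 and 6.47 FPKM in the knockdown-labelled libraries and 0.00 and 0.04 in control, so its control ratio carries no information. LUZP6 overlaps MTPN, and the sources used here do not say how shared reads were counted.

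The highest ratios included the mRNAs of a ferritin chain, a ribosomal protein and a selenoprotein. FTL, the ferritin light chain that stores iron, had 775 FPKM in the knockdown-labelled input and 7781 on its polyribosomes, against 2285 and 640 FPKM in control. RPLP1, an acidic protein of the ribosomal stalk, had 1072 and 6379 FPKM against 4353 and 1695. SEPW1, a small selenoprotein, had 38.1 and 268 FPKM against 119 and 56.0. In each of the 3 the polyribosome library was the higher one in the knockdown-labelled pair and the lower one in control. The ratios were 3.33, 2.57 and 2.78 in the knockdown-labelled pair, and -1.83, -1.36 and -1.07 in control.

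METRN, a secreted neurotrophic factor, had 17.8 and 135 FPKM and a ratio of 2.85. GUK1, guanylate kinase, had 65.8 and 381 FPKM and a ratio of 2.52. The remaining genes among the 15 highest were ANKRD9 (2.47), PRR7 (2.42), HOTS (2.40), TMEM54 (2.31), BRI3 (2.28) and 5 MTRNR2L genes. All 15 had a ratio below 0 in control, and 9 of them were depleted there. HOTS overlaps the imprinted H19 gene, so its reads and those of H19 may not be separable. It had 158 and 839 FPKM in the knockdown-labelled libraries and 2.96 and 2.44 in control.

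**Figure D4:**
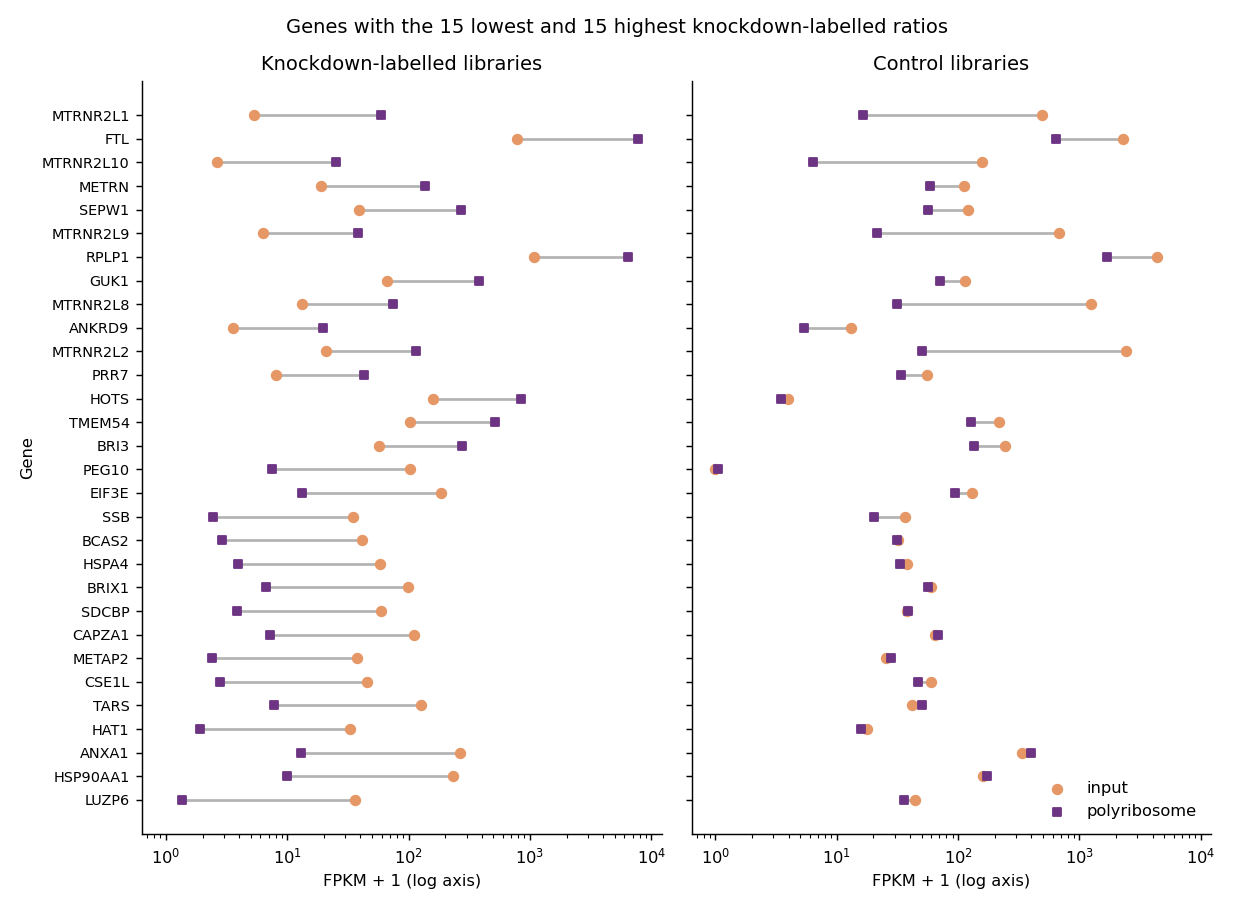
Levels (FPKM + 1, log axis) of the 15 highest and 15 lowest genes by knockdown-labelled ratio, in input (circles) and on polyribosomes (squares), for the knockdown-labelled libraries (left) and control (right). In the lower rows the squares lie far left of the circles on the left panel and near them on the right, and in the upper rows the order of squares and circles turns between the panels.

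MTRNR2L genes are nuclear copies of part of the mitochondrial 16S rRNA gene, and reads of mitochondrial rRNA can be assigned to them. The 5 kept members had ratios from 2.46 to 3.48. MTRNR2L2 had 19.8 and 114 FPKM in the knockdown-labelled input and polyribosome libraries, and 2427 and 49.1 FPKM in control. MTRNR2L8 had 12.3 and 73.4 FPKM, against 1250 and 30.5 FPKM. The control input was thus the high library, and the median control ratio of the 5 was -5.00. Their order between fractions is opposite in the pairs as the header names the columns.

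Of the few genes depleted on control polyribosomes, a larger share was enriched here than of all genes kept. Of the 40 genes depleted in control, 21 were enriched in the knockdown-labelled pair, 13 depleted and 6 between. The 21 make up 52.5% of the 40 genes, beside 9.23% enriched and 26.9% depleted among all genes kept. They are 3.28% of the 641 genes enriched in the knockdown-labelled pair. Among the 21 are the 5 kept MTRNR2L genes, which may all take up reads of mitochondrial rRNA. Over the 6942 genes the ratios of the pairs had a Spearman's rho of -0.18.

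Ribosomal protein mRNAs start with a C followed by a run of pyrimidines, the terminal oligopyrimidine (TOP) tract through which mTOR signalling sets their translation. Of the 48 large-subunit genes, 9 were enriched (18.8%) and 5 depleted (10.4%), beside 9.23% and 26.9% of all genes. Their median ratio was 0.30 against 0.05 for all genes. Of 33 small-subunit genes, 7 were enriched (21.2%) and 1 depleted (3.03%), with a median of 0.75. The control medians were -0.24 and -0.29. RPS2 had 4637 FPKM in input and 14328 on polyribosomes, a ratio of 1.63. RPS29 had 490 and 2131 FPKM, a ratio of 2.12, and RPL41 had 2033 and 6081 FPKM, a ratio of 1.58. Low members were RPL7, with 1554 and 595 FPKM and a ratio of -1.38, RPL6 (-1.19) and RPL14 (-1.18). Both subunits therefore had members on both sides. Ribosomal protein, ferritin, tubulin and HSP90 genes have processed copies elsewhere in the genome, and how the authors assigned reads shared with them is not given in the sources used here.

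Elongation factors and other mRNAs known as TOP messages were lower than the ribosomal proteins. Of 14 kept, 0 were enriched and 8 depleted (57.1%, beside 26.9% of all genes). Their median was -1.42, and the control median -0.15. NPM1, the nucleolar chaperone nucleophosmin, had 1574 FPKM in input and 152 on polyribosomes, a ratio of -3.36. NAP1L1, a histone chaperone, had 144 and 15.97 FPKM, a ratio of -3.09. EEF1A1 was at -1.14, whereas EEF2 had 888 and 1215 FPKM and a ratio of 0.45. EEF1G had the highest ratio of the list, 0.65. Start sites of 6 genes are shown because TOP messages with high and low ratios begin alike. Each is the RefSeq start in GRCh38.p14 with 15 bases before it and 15 bases from it on, and the pyrimidine tract from the start is in capitals.
RPLP1, chr15:69452803-69452832, plus strand: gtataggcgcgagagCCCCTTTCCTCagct
RPL41, chr12:56116618-56116647, plus strand: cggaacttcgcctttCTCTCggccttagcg
EEF2, chr19:3985449-3985478, minus strand: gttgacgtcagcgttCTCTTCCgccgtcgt
EEF1A1, chr6:73521018-73521047, minus strand: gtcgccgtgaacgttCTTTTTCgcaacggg
NAP1L1, chr12:76084671-76084700, minus strand: ggcgggctcttgggtCTTTTTTagcgccat
NPM1, chr5:171387834-171387863, plus strand: cggggagcctgcgtcCTTTCCCTggtgtga

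The tract was searched on the gene's own strand as a C at the RefSeq start followed by at least 4 bases that are C or T. It was found in 44 of 66 ribosomal protein genes with a start window (66.7%) and in 4.04% of all 27305 promoters of the table. It was found in 6.72% of the genes enriched, 5.68% of those depleted and 6.21% of the kept genes with a window. Ribosomal protein genes with the tract had a median ratio of 0.73 (44 genes), and those without it at the annotated start one of 0.04 (22 genes). Over all kept genes with a window the medians were closer, 0.17 with the tract (358 genes) and 0.03 without it (5407 genes).

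Other parts of the translation apparatus lay on the low side. Of 36 initiation factors kept, 14 were depleted (38.9%, beside 26.9% of all genes) and 0 enriched. EIF4G2, a scaffold of cap-independent initiation, had 186 and 12.8 FPKM and a ratio of -3.76, and ABCE1, which recycles ribosomes, was at -3.37. EIF4EBP1, the mTOR target that restrains the cap-binding protein, was at 0.83. Of 21 aminoacyl-tRNA synthetases, 10 were depleted (47.6%, beside the same 26.9%) and 0 enriched. TARS, IARS and NARS were the lowest, at -4.03, -3.54 and -3.39, and VARS was the highest at 0.36. The GC contents of those 3 lay from 43.6% to 44.6%, and VARS had 62.6%.

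Chaperones and the proteasome had members at both ends of their own range but hardly above 0. Of 29 heat shock proteins and partners, 16 were depleted (55.2%, beside 26.9% of all genes), with a median of -1.28. HSPA4 had 57.2 and 2.94 FPKM (-3.89) and HSP90B1, the HSP90 of the endoplasmic reticulum, 52.8 and 2.96 FPKM (-3.76). HSPB1, a small heat shock protein, had 514 and 772 FPKM and the highest ratio, 0.58. With GC content and length removed, 13 of the 29 were depleted, 11 of them among the 16, beside 12.9% of all genes. The CCT chaperonin, which folds actin and tubulin, and prefoldin had 8 of 14 genes depleted (57.1%). Their median was -1.52, with a control median of 0.42. CCT8 was at -3.11 and CCT7 at -0.10. Of 32 proteasome subunits, 13 were depleted (40.6%), and the list ran from PSMC6 at -3.59 to ADRM1 at 0.46. In the endoplasmic reticulum list 10 of 29 were depleted (34.5%, beside 26.9% of all genes), among them CANX, which had 152 and 15.3 FPKM (-3.23). SSR4, a subunit of the translocon-associated complex, was at 0.64.

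Mitochondrial and metabolic genes stood near the median of all genes. Mitochondrial ribosomal proteins had a median of -0.14, with 19 of 77 depleted (24.7%, beside 26.9% of all genes) and 1 enriched (1.30%, beside 9.23%). Their range went from MRPS35, with 61.6 and 5.97 FPKM (-3.17), to MRPS12, with 126 and 258 FPKM (1.03). Complex I of the respiratory chain had a median of 0.04, and complexes II to V one of 0.15. In both lists 1 gene was enriched, NDUFA11 (1.25) and UQCR11 (1.26), shares of 2.70% and 2.44% beside 9.23% of all genes. The depleted were 4 of 37 (10.8%) and 7 of 41 (17.1%). CYCS, cytochrome c, had 55.9 and 11.3 FPKM and a ratio of -2.21. Glycolysis had 3 of 17 genes depleted (17.6%, beside 26.9% of all genes). They were the lactate transporter SLC16A1 (-2.87) and the lactate dehydrogenases LDHB (-1.84) and LDHA (-1.62). ALDOA, an aldolase, had 1517 and 2114 FPKM and a ratio of 0.48. Of 28 genes of cholesterol and fatty acid synthesis, 7 were depleted, a share near the 26.9% of all genes.

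Several lists of nuclear functions had low medians. Importins and exportins, which carry proteins and RNA through nuclear pores, had a median of -2.08, with 15 of 21 depleted (71.4%, beside 26.9% of all genes). KPNB1, importin beta, had 62.5 and 7.31 FPKM (-2.93) and XPOT, the tRNA exporter, 35.0 and 2.71 FPKM (-3.28). Nucleolar factors of ribosome assembly had a median of -1.61, with 24 of 39 depleted (61.5%). NCL, nucleolin, had 363 and 34.1 FPKM (-3.38), whereas NHP2, of the box H/ACA particles, had 302 and 473 FPKM (0.64). Removing GC content and length left medians of -0.92 for importins and exportins and -0.78 for nucleolar factors, beside -0.31 for all genes. The hnRNP and SR proteins had 23 of 34 genes depleted (67.6%) and a median of -1.44. HNRNPA2B1 had 282 and 37.9 FPKM (-2.86), and PTBP1, the polypyrimidine-tract binding protein, 209 and 221 FPKM (0.08). The spliceosome core had a median of -0.19, with SF3B1 at -3.25 and LSM7 at 0.98.

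In the cell cycle lists, mitosis and spindle genes had a median of -1.09, with 14 of 24 depleted (58.3%) and 0 enriched. CDK1 had 63.8 and 5.77 FPKM and a ratio of -3.26. PLK1, another mitotic kinase, had 98.4 and 122 FPKM and a ratio of 0.30, and BIRC5, survivin, was at 0.55. DNA replication had 14 of 41 genes depleted (34.1%, beside 26.9% of all genes) and 2 enriched (4.88%, beside 9.23%). Those 2 were E2F1, a transcription factor of the G1/S transition, with 20.8 and 62.9 FPKM (1.55), and POLD2, a subunit of DNA polymerase delta, with 195 and 567 FPKM (1.53). RFC3 of the clamp loader (-3.05) and MCM6 of the replicative helicase (-2.59) were the lowest.

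Epithelial and cytoskeletal genes were divided. Of 13 squamous markers kept, 7 were depleted (53.8%, beside 26.9% of all genes) and 0 enriched. TP63, the master regulator of stratified epithelium, had 23.7 and 2.16 FPKM (-2.96), and EPCAM had 186 and 28.1 FPKM (-2.69). Keratins and cornified envelope genes had a median of 0.35, with KRT7 highest at 60.4 and 169 FPKM (1.47) and SPRR3 lowest at 413 and 190 FPKM (-1.11). Junction and integrin genes had 13 of 27 depleted (48.1%). CLDN1 was at -3.27 and CLDN4 at 0.73, both claudins of tight junctions, with 41.5% and 57.5% GC. Of 36 actin cytoskeleton genes, 13 were depleted (36.1%), and TMSB10, a thymosin that binds actin monomers, had 946 and 2095 FPKM (1.15). All 10 tubulin genes kept lay between -0.19 and 0.45. TUBB, the most abundant of those named, had 1910 FPKM in input and 1672 on polyribosomes.

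Rab GTPases and coat proteins followed the same division by gene. Of 26 Rab genes, 10 were depleted (38.5%) and 1 enriched (3.85%), beside 26.9% and 9.23% of all genes. Coat proteins of vesicles had 14 of 32 depleted (43.8%, beside 26.9% of all genes), from COPB1, with 22.1 and 0.87 FPKM (-3.63), to ARF5 at 0.77. Lysosomal genes had a median of 0.17. In that list 1 gene was enriched (2.94%, beside 9.23% of all genes), IDS, which breaks down sulfated glycosaminoglycans. IDS had 10.6 and 53.7 FPKM (2.24) against 51.5 and 12.2 FPKM (-1.99) in control.

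The ferritins and some selenoproteins held some of the highest ratios. Of 9 iron genes kept, 2 were enriched (22.2%, beside 9.23% of all genes), which were the ferritins FTL and FTH1. Another 3 were depleted (33.3%, beside 26.9%), and the median of the 9 was -0.01, beside 0.05 for all genes. FTH1, the ferritin heavy chain, had 1083 and 4443 FPKM, a ratio of 2.03, against -1.33 in control. Both ferritins carry an iron-responsive element in the 5′ UTR, through which iron regulatory proteins block their translation when iron is scarce. TFRC, the transferrin receptor, whose element lies in the 3′ UTR, had 54.8 and 7.02 FPKM and a ratio of -2.80. Selenoproteins read a UGA codon as selenocysteine. Of 14 kept, 6 were enriched (42.9%, beside 9.23% of all genes) and 1 depleted (7.14%, beside 26.9%). The median was 0.81 and the control median -0.05, at a median GC content of 59.2%. GPX4, which reduces lipid peroxides, had 310 and 1286 FPKM and a ratio of 2.05, and GPX1 had 108 and 335 FPKM and a ratio of 1.62. TXNRD1, a thioredoxin reductase, was the low member, with 86.2 and 15.8 FPKM and a ratio of -2.38. After GC content and length were removed, 3 of the 14 were enriched, 1 of them among the 6, beside 3.54% of all genes. The median of the selenoproteins was then 0.16, beside -0.31 for all genes.

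Stress, interferon and immediate early genes were mixed. The integrated stress response list had 4 of 24 genes enriched (16.7%, beside 9.23% of all genes) and 7 depleted. DDIT3, the CHOP factor, was at 7.31 and 17.5 FPKM (1.15) and SLC38A2, an amino acid carrier, at 26.8 and 1.54 FPKM (-3.45). Of 26 interferon-induced genes, 8 were depleted. The depleted shares of these lists, 29.2% and 30.8%, and the 23.3% of the immediate early genes were near the 26.9% of all genes. IFI44 had 79.9 and 8.65 FPKM (-3.07), and ISG15, a ubiquitin-like modifier, had 658 and 976 FPKM (0.57). Immediate early genes had 3 of 30 enriched (10.0%, beside 9.23% of all genes), JUND (1.41), FOSB (1.23) and KLF2 (1.00), and 7 depleted. JUND and KLF2 were at -0.13 and -0.25 once GC content and length were removed, above the median of -0.31 that all genes then had. For antigen presentation by MHC class I, the median was 0.10, and B2M, its light chain, had 1215 and 686 FPKM (-0.82).

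Among genes of RNA 5-methylcytosine, the group of NSUN6, 7 were kept and 1 was depleted (14.3%, beside 26.9% of all genes). That gene was NSUN2, the main methyltransferase of mRNA and tRNA, with 33.1 and 8.47 FPKM and a ratio of -1.85. ALYREF and YBX1, which bind the mark, were at 0.15 and -0.69. NSUN6 itself had too low a mean to be kept, and its ratio was -1.81 in the knockdown-labelled pair and 0.18 in control. Its transcript has 40.7% GC, within the range of the most AT-rich quintile, whose kept genes had a median ratio of -1.94. In the list of tRNA m7G and mTOR genes, 2 of 11 were enriched (18.2%, beside 9.23% of all genes), MLST8 (1.52) and RPS6KB2 (1.51). MTOR, with 9.93 and 3.06 FPKM (-1.43), was the depleted one (9.09%, beside 26.9%). With GC content and length removed, 0 of the 11 were enriched, beside 3.54% of all genes. MLST8 and RPS6KB2 were then at 0.32 and 0.41.

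Beside all genes, the share depleted exceeded 26.9% in lists such as the importins and the nucleolar factors and lay under it in the tubulins and complex I. The Spearman's rho with GC content inside a list was 0.89 for the importins, 0.80 for the nucleolar factors, 0.86 for the proteasome and 0.50 for the large ribosomal subunit. Among chromosomes the median was highest on chromosome 19, at 0.60 (median GC content 61.1%), and lowest on chromosome 18, at -1.26 (45.7%), and chromosome 13, at -1.22 (45.9%).

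**Figure D5:**
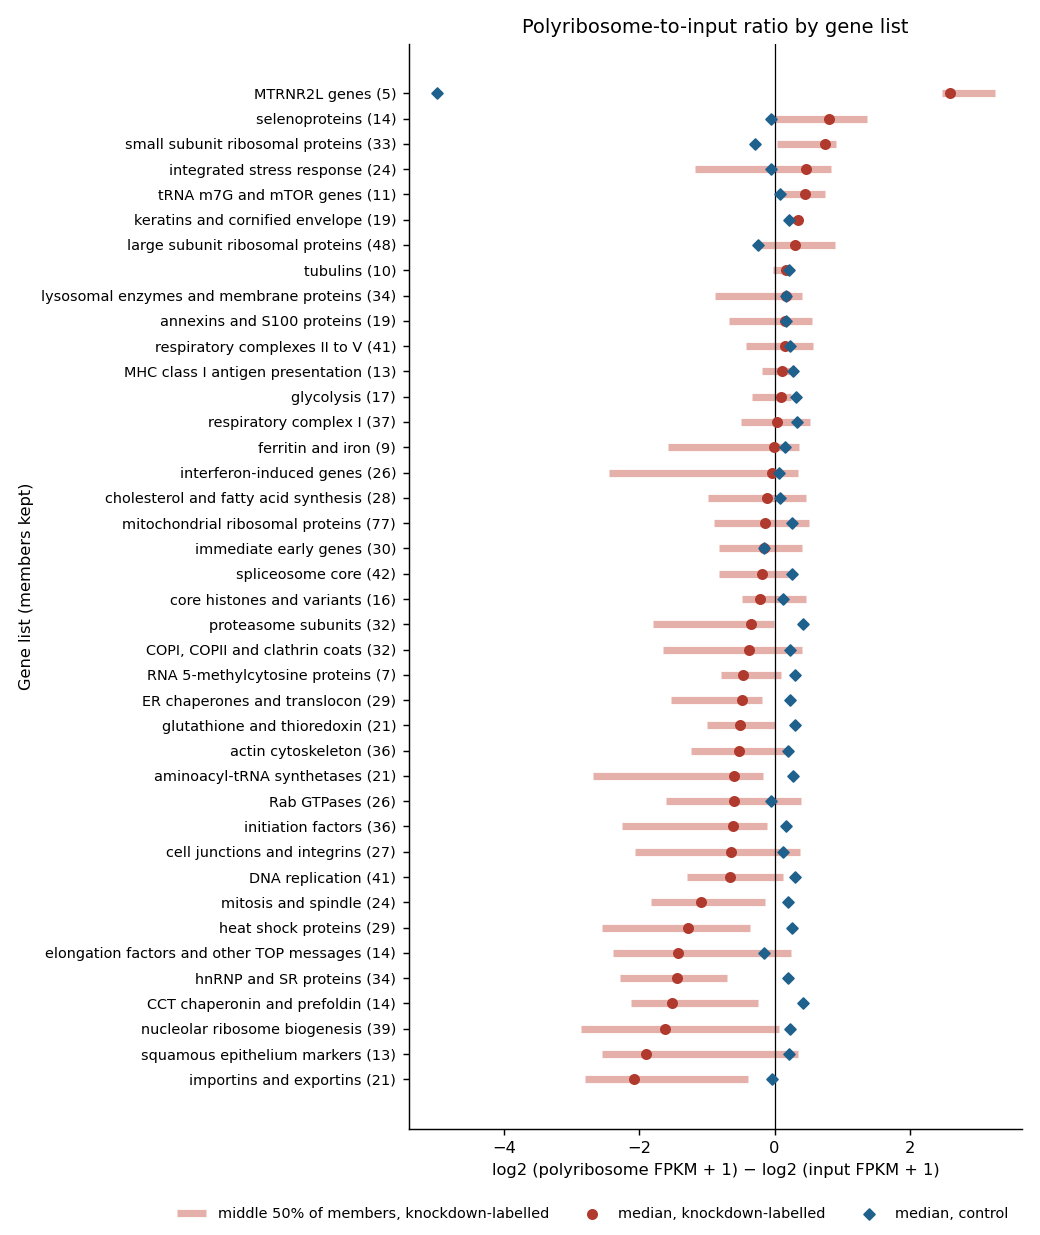
Median log2 ratio of polyribosome to input for 40 gene lists with at least 5 members kept (number in parentheses), with the middle 50% of members as a bar for the knockdown-labelled pair and a diamond for the control median. Control medians lie near 0 except for the MTRNR2L genes (-5.00), while knockdown-labelled medians run from -2.08 (importins and exportins) to 2.60 (MTRNR2L genes).

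Genes that stood out beyond GC content and transcript length were named after these values were seen. Coding length was not removed. With the trend removed HSP90AA1 was at -3.59, PEG10 at -4.05 and TARS at -3.03, and RPLP1 was at 2.89 and FTL at 2.49. HMGA2, an architectural chromatin protein, had 58.7 and 8.40 FPKM and went from -2.67 to -3.28 on removal. DDX3X, a helicase of initiation, had 30.5 and 2.63 FPKM and went from -3.12 to -2.74. Of the 15 highest and 15 lowest genes, 5 and 6 were among the corresponding 15 after removal. The trend uses 1 annotated transcript for each gene, which need not be the one the cells use.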

How the data were processed

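Per the labels' protocols, poly(A) RNA of input and polyribosome fractions was sequenced from 4 samples with a stranded mRNA kit. The authors deposited 1 table of FPKM per gene, and a ratio of polyribosome to input FPKM, which the values show to be (polyribosome + 5) over (input + 5). In the authors' deposited table that ratio was at least 2 for 427 of the kept genes. The submitters' processing notes name TopHat and the builds hg19 and GRCh37. How fragments were counted, with which annotation and with or without strand, is not given in the sources used here. Since values are rounded to 0.01 FPKM, reads could not be recovered, depth is unknown and no interval was computed.

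Rows were grouped by the header and the sample descriptions. Ratios were differences of log2(FPKM + 1), computed with pandas 2.3.3 and numpy 2.4.6, over rows whose mean reached 5 FPKM. A gene was counted when it was at least 2-fold higher or lower. Of the 17064 rows, 26 have a number in place of a gene name (9 kept) and 2 have no name (0 kept). GC content, lengths and coding sequences came from GENCODE 29 by symbol or RefSeq synonym, for 99.6% of the kept genes, and start windows from RefSeq (GRCh38.p14). The steps were tested on simulated data.

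The genes named are the 15 highest and 15 lowest that average 10 FPKM or more and have a symbol and 1 row, NSUN6, up to 3 members at each end of each of 43 lists, both members of listed pairs, and markers. The exceptions, named after their values were seen, are METTL1, HMGA2, DDX3X and the genes at the limit of 5 FPKM. Of the 33 long non-coding and snoRNA host genes listed, 0 were in the table. CD68 (0.10) was the marker of other cell types that was kept. The members, lists and pairs were chosen with earlier results of these data known. Values of some genes and 1 list are not reported here.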

Additional observations from a re-analysis of the deposited data

Results flagged for a closer look

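For 9 of the 15 highest genes the control and knockdown-labelled libraries moved in opposite directions, each by at least 2-fold. The difference was not tested, since each direction rests on 1 pair of libraries. The knockdown-labelled log2 ratio was 3.33 for FTL, 2.78 for SEPW1, 2.57 for RPLP1 and 2.47 for ANKRD9, where control had -1.83, -1.07, -1.36 and -1.29. For the MTRNR2L genes it was 3.48 (MTRNR2L1), 3.26 (MTRNR2L10), 2.60 (MTRNR2L9), 2.48 (MTRNR2L8) and 2.46 (MTRNR2L2), where control had values from -4.63 to -5.60.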

How the results depend on the processing

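The number of genes at least 2-fold higher was 641, and it was 427 with 5 FPKM added in place of 1, 245 with GC content and length removed and 1868 with the knockdown columns exchanged. The number at least 2-fold lower was 1868, and it was 892 with GC content and length removed, 3519 with a mean of at least 1 FPKM, 3695 with no filter, 1155 with a mean of at least 10 FPKM and 641 with the columns exchanged. The higher genes made up 25.5% of those counted, 16.7% at a mean of at least 1 FPKM, 33.0% at 10 FPKM and 74.5% with the columns exchanged. The cause was not tested, except that the exchange swaps the counts by construction. No paired analysis was possible because there is 1 library per group. Removing GC content and length, which left a median of -0.31 over all genes, turned the sign of 24 of 127 named genes, 22 of them from above 0 to below. Among the 24, H3F3A (0.46), JUND (-0.13) and KLF2 (-0.25) had been 2-fold or more from input. JUND and KLF2 thus lay below 0 but above the median of -0.31. It turned 10 of 41 list medians from above 0 to below, such as keratins (0.35 to -0.54), tubulins (0.17 to -0.51) and the integrated stress response (0.47 to -0.30). A mean of at least 1 FPKM moved the cell junction median from -0.65 to -1.59. Depth is unknown, so no precision can be given for low values.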

Other observations

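The depleted shares of 3 further lists lay under the 26.9% of all genes. Of 16 core histones and variants, 1 was depleted, H3F3A, with 903 FPKM in input and 361 on polyribosomes (-1.32, and 0.46 with GC content and length removed), while H2AFX had 183 and 317 FPKM (0.79). Of 19 annexins and S100 proteins, 4 were depleted and 1 enriched (5.26%, beside 9.23% of all genes). The enriched one was S100A4, a calcium-binding protein of motile cells, with 31.9 and 68.6 FPKM (1.08). Glutathione and thioredoxin genes had 5 of 21 depleted, with GCLC, which makes the precursor of glutathione, at 18.9 and 2.68 FPKM (-2.43) and GSTP1, a glutathione transferase, at 1206 and 1890 FPKM (0.65).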
